A study of Rattus norvegicus with 40 samples.

Results

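An ischemia of 10 min is the shortest exposure in a series on neonatal rat ventricular myocytes, the contracting muscle cells isolated from the hearts of newborn rats. The comparison described here sets 4 arrays of cells after 10 min of ischemia against 4 arrays at 0 min, both groups without reperfusion. Members were taken from the sample titles, and they make up 8 of the 40 arrays. Ischemia was imposed by coverslip hypoxia, in which a glass coverslip laid over a cell monolayer limits the exchange of oxygen and medium. Each group holds 2 cell preparations with 2 duplicate arrays each. The other 32 arrays cover 30, 60 and 120 min of ischemia, and 0, 10, 30, 60 and 120 min of ischemia followed by reperfusion. The labels name no strain, sex, day of age or drug, give no culture or oxygen conditions, and do not say how long the 10 min cells were kept before RNA was taken or how long reperfusion lasted. They also do not say whether preparations and duplicates are separate animals, cultures or only separate hybridisations, so the p-values measure the spread between these samples, which may be technical.

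Cells sense oxygen mainly through the hypoxia-inducible factors (HIF). While oxygen is available, prolyl hydroxylases of the EGLN family mark the HIF alpha subunits, and the VHL ubiquitin ligase then sends them for destruction. When oxygen is short the alpha subunit accumulates, pairs with ARNT and binds a short DNA core in target genes, which raise glucose uptake and glycolysis, adjust mitochondria, modify collagen and signal for new vessels. In heart muscle cells ischemia also stops oxidative phosphorylation and disturbs calcium handling, and stress of many kinds induces immediate early genes such as Fos.

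Values are log2(intensity + 16) after quantile normalization, and each difference is 10 min minus 0 min with duplicates averaged within a preparation. They are on the log2(value + 16) scale, which understates the change of dim probe sets, and a probe set listed at or below 0 reads 4, the floor of this scale. Array values given in a row are always in the order preparation 1 duplicate 1, preparation 1 duplicate 2, preparation 2 duplicate 1, preparation 2 duplicate 2. A probe set is called, and its gene is said to have risen or fallen, where limma's Benjamini-Hochberg adjusted p was under 0.05 over the 18625 probe sets tested. These probe sets cover 10483 named genes. In a gene list each gene is read from its brightest tested probe set, and medians and counts are over those readings; members called only on another probe set are then given by name, chosen after their values were seen. The median standard error of a difference was 0.12, so that the typical 95% interval reached 0.26 to either side, and arrays give no read depth. Only 2 preparations a group limit the precision.

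One library stood apart from the other 39. The 0 min array of preparation 1, duplicate 1, was the least like the rest: its correlations with them had a median of 0.872, where the next lowest array had 0.960 and the highest 0.979. It correlated at 0.881 with its own duplicate, while the 0 min duplicates of preparation 2 reached 0.979 and the 10 min duplicates 0.988 and 0.987. Several genes bright in all other arrays of the comparison were at the floor in it, Hif1a among them. It is called the outlying array below, and results are given with it and without it. No 2 arrays held identical values.

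At 10 min 368 probe sets passed the test, 1.98% of those tested. Of these, 212 were higher (1.14%) and 156 were lower (0.838%), and they stood for 274 named genes. Without the outlying array 258 passed (1.39%), 128 higher (0.687%) and 130 lower (0.698%). The called rises had a median of 0.58 and the called falls a median of -0.56. Rises of at least 1 numbered 37, and falls of that size 18. The median over all tested probe sets was 0.00, as quantile normalization makes it. All 368 had the same sign in both preparations, and 311 had 10 min arrays that did not overlap the 0 min arrays. Without a call being asked, the 4 arrays of 10 min lay all above the 4 of 0 min in 1374 probe sets (7.38%) and all below them in 1299 (6.97%). These were, without the outlying array, 1707 (9.17%) and 1829 (9.82%). Leaving out other single arrays gave 161 calls (without the 10 min array of preparation 2, duplicate 2) to 656 (without duplicate 1 of preparation 2 at 0 min), and leaving out preparation as a block gave 176. The spread that the test used came from all 10 groups. In a fit of the 8 arrays alone, with 4 averaged values, limma called 0 probe sets, with 1718 at an unadjusted p under 0.05.

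**Figure D1:**
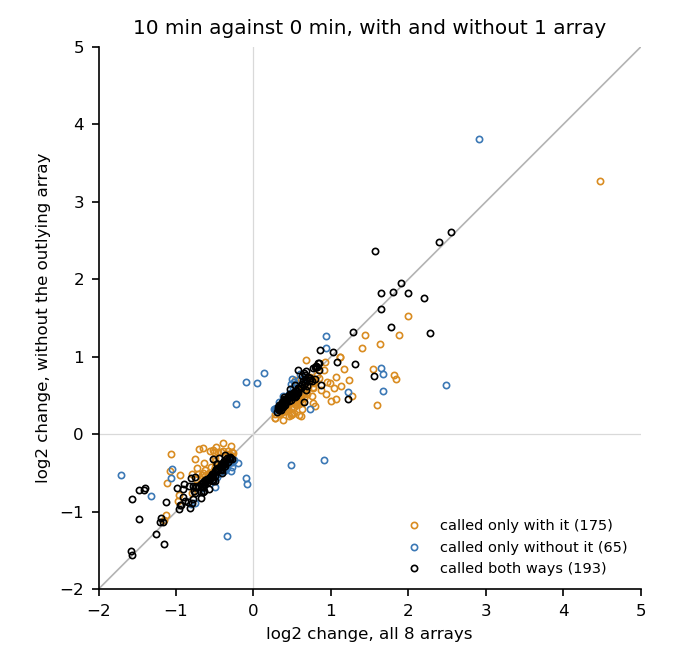
Each circle is a probe set called at 10 min against 0 min, with its log2 change from all 8 arrays on the x axis and its change without the outlying array on the y axis; the diagonal marks equal values. The 193 probe sets called both ways are black, the 175 called only with the array orange and the 65 called only without it blue.

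Among the lists examined, HIF targets had the largest share of members whose 10 min arrays all lay above 0 min. Of 41 HIF targets outside glycolysis, 37 were tested, and on the brightest probe set 8 rose and none fell, against the 1.14% of probe sets called higher. The 8 were Ak4, Ankrd37, Ero1a, P4ha1, Kdm3a, Insig2, Gys1 and Kdm4b. The median difference of the 37 was 0.66, beside 0.00 over all probe sets, and 35 were positive. In 31 of the 37 the 10 min arrays lay above every 0 min array, where 7.38% of all probe sets did so. Without the outlying array the median was 0.60 and 32 of 37 were separated, but only 2 genes rose, Ankrd37 and Adm (adrenomedullin, a vasodilator peptide). Kdm3a, Insig2 and Adm were named after their values were seen. The summed intensity of the list ran from 52609 to 72282 at 0 min and from 87409 to 94859 at 10 min.

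Ankrd37, an ankyrin-repeat protein gene long used as a hypoxia marker, read 5.06, 4.89, 4 and 4 at 0 min and 6.42, 6.06, 6.46 and 6.63 at 10 min. The groups did not overlap, and both 0 min arrays of preparation 2 were at the floor. The difference was 1.90 ± 0.38 (SE, 2 preparations a group; limma adjusted p = 0.0357), and 1.95 without the outlying array. P4ha1, a catalytic subunit of the prolyl hydroxylase that stabilises collagen, read 11.35, 11.59, 11.07 and 10.79 at 0 min and 11.97, 12.06, 12 and 12.06 at 10 min. Its 10 min arrays lay within a narrow band above all 0 min arrays, with a difference of 0.82 ± 0.16 (adjusted p = 0.0343), or 1.77-fold. With that array left out it was 0.76 with an adjusted p of 0.0586. Kdm4b, a histone H3 lysine demethylase that needs oxygen, read 8.80, 9.18, 8.87 and 8.90 at 0 min and 9.43, 9.39, 9.41 and 9.56 at 10 min. The groups did not overlap, at 0.51 ± 0.10 (adjusted p = 0.0357).

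The sequences before these 3 genes are shown because the HIF core can be looked for in them directly. The letters are from RefSeq on GRCr8, on the strand of the gene, and run from 250 bases before the annotated start to 20 after it. The core was searched as ACGTG and GCGTG on both strands, and each match is in capitals, where a palindrome CACGTG is a match on each strand. Ankrd37 lies at chr16:53001257-53001526 and holds 5 matches, P4ha1 at chr20:27844796-27845065 holds 3, and Kdm4b at chr9:1245653-1245922 holds 4.
Ankrd37: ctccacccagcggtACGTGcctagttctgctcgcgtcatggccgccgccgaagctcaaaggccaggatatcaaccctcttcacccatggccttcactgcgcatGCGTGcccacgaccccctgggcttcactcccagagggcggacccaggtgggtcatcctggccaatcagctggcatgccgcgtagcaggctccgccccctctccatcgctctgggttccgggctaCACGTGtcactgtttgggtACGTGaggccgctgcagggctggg
P4ha1: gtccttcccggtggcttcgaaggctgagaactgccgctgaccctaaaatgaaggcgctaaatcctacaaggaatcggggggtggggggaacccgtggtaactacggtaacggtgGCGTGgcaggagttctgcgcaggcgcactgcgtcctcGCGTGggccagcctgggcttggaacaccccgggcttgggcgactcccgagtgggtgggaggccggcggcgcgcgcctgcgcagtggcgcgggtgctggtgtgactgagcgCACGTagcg
Kdm4b: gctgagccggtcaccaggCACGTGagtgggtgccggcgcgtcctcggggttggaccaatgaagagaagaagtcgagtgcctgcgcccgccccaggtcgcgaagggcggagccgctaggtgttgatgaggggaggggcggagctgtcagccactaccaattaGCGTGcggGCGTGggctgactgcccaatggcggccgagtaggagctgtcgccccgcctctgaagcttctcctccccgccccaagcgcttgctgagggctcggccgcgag
In Ankrd37 the matches began 236, 147, 23, 22 and 4 bases before the start. Of the other risen targets, Gys1 and Ak4 held 1 match each and Insig2 held 2, in windows of 300 bases that end 50 bases after the start. Kdm3a has 2 annotated starts, with 0 and 1 matches, and 7 of the 8 genes were found by symbol, all but Ero1a. At least 1 match stood in 7 of these 8 windows (87.5%), in 26 of 32 windows of all tested HIF targets (81.2%), in 60.7% of windows of tested genes and in 41.6% of all 33469 windows. Windows of called higher genes held one in 65.2% and those of called lower genes in 54.7%. A match is a string of letters here, not evidence of binding.

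Ero1a encodes an oxidase that passes electrons from folding proteins in the endoplasmic reticulum to oxygen. It read 8.19, 11, 10.35 and 10.21 at 0 min and 11.54, 11.43, 11.41 and 11.51 at 10 min, which was 2.9-fold or 1.54 ± 0.25 (adjusted p = 0.0216). The groups did not overlap, but the outlying array was far below the other 3, and without it the difference was 0.84 with an adjusted p of 0.105. Ak4, an adenylate kinase of the mitochondrial matrix, read 4, 8.82, 4 and 4 at 0 min and 9.62, 9.49, 9.73 and 9.87 at 10 min. Of the 0 min arrays 3 were at the floor and 1 array of preparation 1 was not. The difference of 4.47 ± 0.65 (adjusted p = 0.0166) therefore rests on the constant added before the logarithm, and without the outlying array it was 3.27 with an adjusted p of 0.122. Gys1, the muscle glycogen synthase, read 10.69, 11.07, 10.87 and 10.80 at 0 min and 11.42, 11.37, 11.50 and 11.33 at 10 min, with no overlap and a difference of 0.55 ± 0.12 (adjusted p = 0.0424).

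Kdm3a, a histone H3 lysine 9 demethylase, differed by 0.74 ± 0.17 (adjusted p = 0.0488), with 0 min arrays from 8.93 to 9.06 and 10 min arrays from 9.67 to 9.88. Insig2, which retains the sterol sensor SCAP in the endoplasmic reticulum, differed by 0.66 ± 0.15 (adjusted p = 0.0485), from 9.54 to 9.85 at 0 min and from 10.15 to 10.54 at 10 min. Neither gene's groups overlapped. Their adjusted p-values without the outlying array were 0.0547 and 0.0811.

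**Figure D2:**
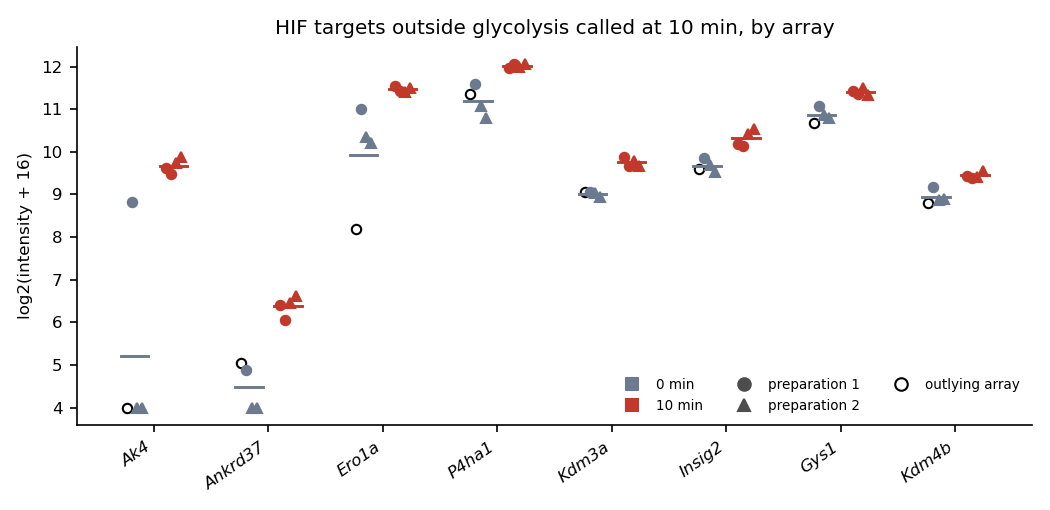
Each marker is 1 array's log2(intensity + 16) for the HIF targets outside glycolysis called at 10 min, 0 min in one colour and 10 min in the other, with circles for preparation 1, triangles for preparation 2 and a black ring for the outlying array. The 10 min arrays of each gene lie close together and above all of its 0 min arrays; Ak4 has 3 of its 4 arrays of 0 min at the floor of 4.

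On the brightest probe set the other 29 tested HIF targets did not pass, although Vldlr, a lipoprotein receptor, rose on another probe set by 0.48 ± 0.10 (adjusted p = 0.0412), and 23 of them had 10 min arrays all above 0 min. Mgarp, a mitochondrial protein gene, had the second largest difference of the list, 2.88 ± 1.13 (adjusted p = 0.172), and Ndrg1 had 1.51 ± 0.37 (adjusted p = 0.0593). Vegfa, the vascular endothelial growth factor, read 11.76, 11.81, 11.63 and 11.43 at 0 min and 12.40, 12.19, 12.43 and 12.43 at 10 min, with no overlap and 0.70 ± 0.16 (adjusted p = 0.0544). Egln1, the hydroxylase that marks HIF for destruction, differed by 0.93 ± 0.21 (adjusted p = 0.0510), and Bnip3, which tags mitochondria for removal, by 0.98 ± 0.25 (adjusted p = 0.0636). Ddit4, an inhibitor of mTOR, differed by 0.92 ± 0.27 (adjusted p = 0.0943), and Hmox1, heme oxygenase, by 1.16 ± 0.32 (adjusted p = 0.0809). Bhlhe40 at -0.01 and Edn1, the endothelin gene, at -0.24 were the 2 members with a negative value.

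The HIF targets had positive medians in both preparations. The median difference of the 37 targets was 0.44 in preparation 1 and 0.77 in preparation 2, and 33 of them had the larger difference in preparation 2. Pdk1, the kinase that closes the entry of pyruvate into the mitochondrial cycle, shows it: 0.67 in preparation 1 and 1.63 in preparation 2. Ero1a was of the opposite kind, with 1.89 in preparation 1, which holds the outlying array, and 1.18 in preparation 2. When the change was tested for a difference between the preparations, with the spread taken from duplicate arrays, limma called 0 probe sets, with 2321 at an unadjusted p under 0.05 and a smallest adjusted p of 0.269. Without the outlying array 8 were called (0.043%), with 1495 unadjusted, and the named genes among them were Ak4 and Inhbe, an activin subunit. Leaving out other single arrays gave from 1 to 15 calls, except that without the 0 min array of preparation 1, duplicate 2, which leaves the outlying array as that preparation's only control, 1740 were called.

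The mRNAs of the sensing machinery itself were not called. None of the 19 tested genes listed as HIF subunits and oxygen-dependent hydroxylases rose or fell, and their median was 0.03. Of them 3 were separated upward, where 7.38% of all probe sets were. The list does not hold Kdm3a, Kdm4b and P4ha1, enzymes of this kind that were listed as HIF targets and rose. Hif1a read 4, 12.07, 12.07 and 12.09 at 0 min and 12.04, 12.10, 12.05 and 12.03 at 10 min. The fitted difference of 1.99 ± 0.82 (adjusted p = 0.186) holds the single floor value, and without the outlying array the difference was -0.02. HIF alpha is controlled mainly as a protein, which arrays do not measure.

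Glucose transport and glycolysis had few calls. Of 33 listed genes 30 were tested and on the brightest probe set 2 rose, Slc16a3 and Slc2a4, while none fell, beside 1.14% of all probe sets called higher. The median was 0.24. Of the 30 genes 18 had 10 min arrays all above 0 min and 2 had them all below, where 7.38% and 6.97% of all probe sets did so. Pfkfb2, a kinase that makes the activator of phosphofructokinase in the heart, rose on another probe set by 0.52 ± 0.11 (adjusted p = 0.0428; 0.0462 without the outlying array), and its brightest one was at 0.03. Without the outlying array the median was 0.21, 20 were separated upward and limma called 0 of the brightest probe sets. The summed intensity was 111608 to 122657 at 0 min and 135293 to 145426 at 10 min. Slc16a3, the MCT4 carrier that exports lactate, read 11.35, 11.82, 11.10 and 10.96 at 0 min and 12.36, 12.26, 12.55 and 12.51 at 10 min. No array of 10 min was below any of 0 min, and the difference was 1.12 ± 0.22 (adjusted p = 0.0352; 0.0671 without the outlying array). Slc2a4, the insulin-responsive glucose transporter GLUT4, read 9.28, 10.39, 10.06 and 10.18 at 0 min and 10.66, 10.71, 11.15 and 11.20 at 10 min. It too was separated, at 0.95 ± 0.15 (adjusted p = 0.0208; 0.0761 without the outlying array).

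Within the pathway the values were uneven. Eno2, the neuron-type enolase, differed by 1.36 ± 0.33 (adjusted p = 0.0580), Hk2, the inducible hexokinase, by 1.22 ± 0.33 (adjusted p = 0.0777), and Pygl, a glycogen phosphorylase, by 1.53 ± 0.40 (adjusted p = 0.0719). The ubiquitous glucose transporter Slc2a1 differed by 0.76 ± 0.21 (adjusted p = 0.0851), and Pfkfb3, a relative of Pfkfb2, by 0.83 ± 0.23 (adjusted p = 0.0861). By contrast Ldha, the lactate dehydrogenase subunit, differed by 0.07, Aldoa by 0.09, Eno1 by 0.13 and Pgk1 by 0.19. Pgam2, a muscle phosphoglycerate mutase, was at -0.23 and Slc16a1, the MCT1 carrier, at -0.15.

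**Figure D3:**
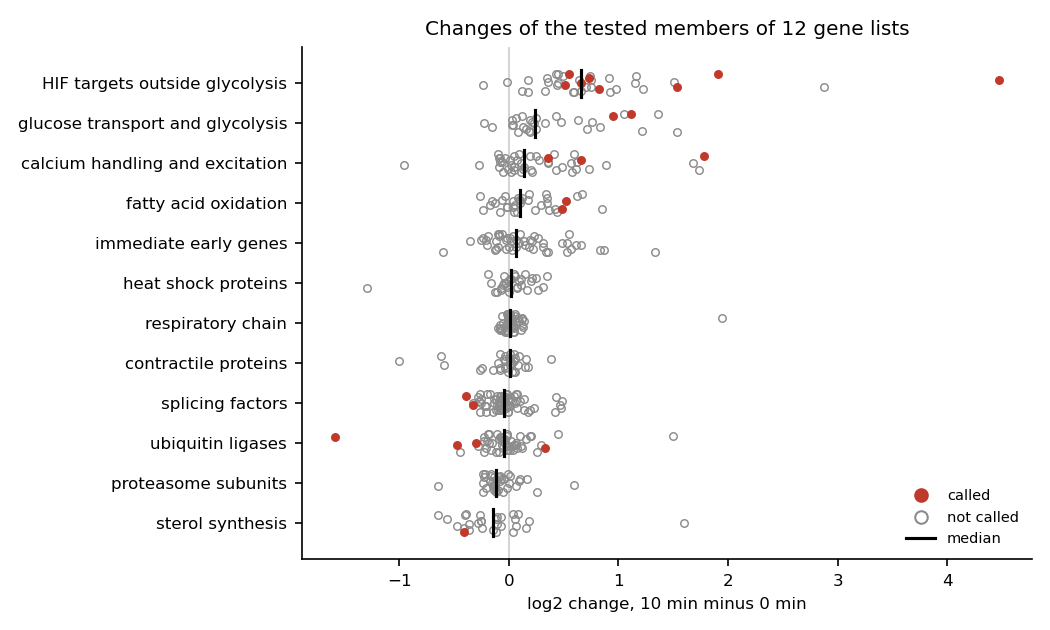
Each circle is the log2 change, 10 min minus 0 min, of a tested gene's brightest probe set in 12 gene lists, filled where called and open where not; the black bar is the list's median. The HIF targets have a median of 0.66 and 8 filled circles, glycolysis a median of 0.24, while heat shock, respiratory chain and contractile genes centre on 0.02, 0.01 and 0.01.

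Among all named genes called with and without the outlying array, the 12 largest rises ran from 1.08 to 2.55. The largest was Aspdh, an aspartate dehydrogenase domain gene, which read 6.05, 5.79, 6.67 and 5.17 at 0 min and 8.36, 8.53, 8.38 and 8.60 at 10 min. The groups were far apart, with 2.55 ± 0.41 (adjusted p = 0.0216), or 5.84-fold. Gimap6, a GTPase of the immunity-associated family, read 7.80, 7.65, 7.90 and 8.06 at 0 min and 9.62, 9.72, 9.58 and 9.69 at 10 min. These too were apart and tight within each group, at 1.80 ± 0.28 (adjusted p = 0.0208), or 3.49-fold. Rgs4, which shortens signalling by Gq- and Gi-coupled receptors in heart cells, read 8.15, 9.76, 8.78 and 8.48 at 0 min and 10.54, 10.57, 10.50 and 10.68 at 10 min. All 10 min arrays were higher, by 1.78 ± 0.23 (adjusted p = 0.0100) and by 1.38 without the outlying array.

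Others among the 12 were Kcnk3, the background potassium channel TASK-1, and Stc1, a secreted hormone of calcium and phosphate balance. Kcnk3 read 6.74, 8.34, 7.91 and 8.14 at 0 min and 8.97, 8.93, 9.11 and 9.36 at 10 min, 1.31 ± 0.16 (adjusted p = 0.00910). Stc1 read 7.49, 10.71, 10.09 and 10.62 at 0 min and 11.24, 11.15, 11.36 and 11.38 at 10 min, 1.56 ± 0.30 (adjusted p = 0.0313). In both the groups did not overlap and the outlying array was the lowest, which leaves 0.75 for Stc1 without it. Ina, an intermediate filament protein of neurons, read 4.38, 4, 4 and 7.06 at 0 min and 7.34, 7.64, 6.91 and 7.12 at 10 min, so the groups overlapped in 1 array of 0 min. The remaining rises were Drp2, Kcna2, Fa2h, Tmem259, Tmem106a and Ankrd37, with differences of 2.29, 1.99, 1.57, 1.22, 1.08 and 1.90. In 7 of the 12 the outlying array was the lowest of the 0 min arrays, and 5 had a 0 min array at the floor.

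The falls were smaller than the largest rises. The 12 largest ran from -1.59 to -0.94, and in all 12 the groups did not overlap. Rlim, an X-linked ubiquitin ligase, read 8.04, 7.71, 7.38 and 7.87 at 0 min and 6.62, 5.84, 7.14 and 5.05 at 10 min. All 10 min arrays were lower, by 1.59 ± 0.25 (limma log2 change -1.59, adjusted p = 0.0216), and the 10 min arrays spread more than the 0 min arrays. H1f4, a linker histone, read 7.91, 8.95, 8.63 and 8.40 at 0 min and 7.47, 7.28, 7.54 and 6.98 at 10 min, a change of -1.15 ± 0.14 (adjusted p = 0.00910). Coro1c, a coronin that binds actin, read 8.49, 8.39, 8.09 and 8.34 at 0 min and 7.47, 7.19, 7.25 and 6.76 at 10 min, a change of -1.16 ± 0.16 (adjusted p = 0.0123). In both, every 10 min array was below every 0 min array.

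Dpysl3, a protein of the growing cell edge, read 9.54, 9.10, 8.70 and 9.06 at 0 min and 8.12, 7.95, 7.98 and 7.58 at 10 min, a change of -1.20 ± 0.20 (adjusted p = 0.0229). Pik3ca, the catalytic subunit of phosphoinositide 3-kinase alpha, read 10.40, 9.40, 9.85 and 9.81 at 0 min and 8.79, 8.86, 8.68 and 8.61 at 10 min, a change of -1.13 ± 0.10 (adjusted p = 0.00239). That value belongs to 1 of its 6 tested probe sets, and the other 5 lay between -0.51 and 0.07 without a call. Atrx, a chromatin remodeller, fell on 3 of its 6 probe sets, the named one by -1.26 ± 0.20 (adjusted p = 0.0216), from between 9.06 and 9.44 to between 7.74 and 8.21. Probe sets of 1 gene can read different transcript ends, and different 3' ends cannot be told apart from unlike probe behaviour here. Over the called lower genes with further tested probe sets, 54 of 75 (72%) had others whose median was also below 0, and in 2 another probe set was called lower. For higher genes these were 51 of 66 (77.3%) and 4.

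Cdkn1b, the cell cycle inhibitor p27, shows how far the outlying array entered some falls. Its called probe set read 10.90, 8.08, 8.10 and 8.20 at 0 min and 7.47, 7.28, 7.51 and 7.40 at 10 min, a change of -1.40 ± 0.31 (adjusted p = 0.0471). Another probe set of the gene read 8.06, 10.95, 11.32 and 11.07 at 0 min and stood at 0.78 (adjusted p = 0.209). Prpf38b, a splicing factor, at -1.48, Retreg1, a receptor for turnover of the endoplasmic reticulum, at -1.47, Chmp1b, an ESCRT-III subunit, at -1.42 and Ate1, an arginyltransferase, at -0.99 had the outlying array as the highest 0 min array too. It was the highest in 9 of the 12 falls. Scn1a, a sodium channel gene, fell by 0.94 with the outlying array in the middle of its 0 min values.

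**Figure D4:**
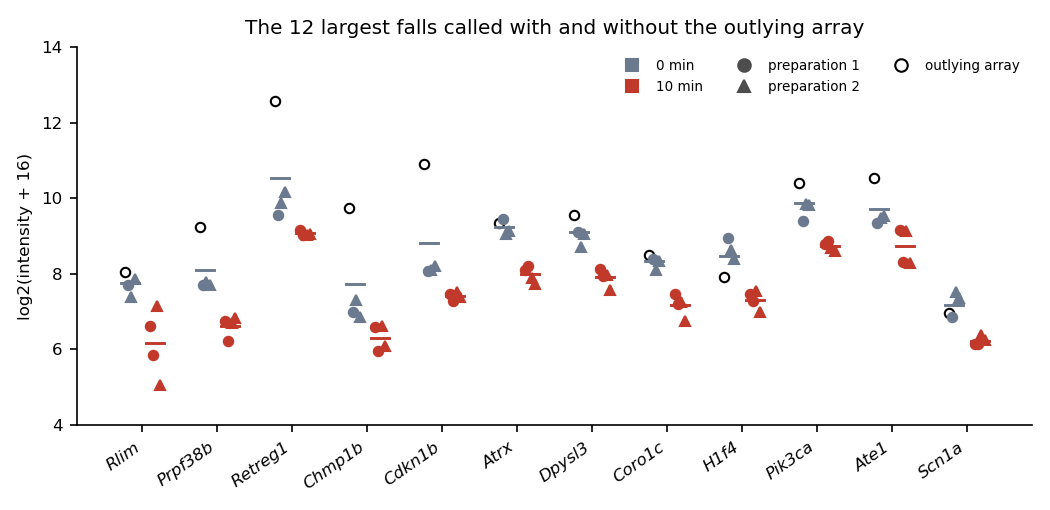
Each marker is 1 array's log2(intensity + 16) for the 12 largest falls called with and without the outlying array, drawn as in the plot of HIF targets by array. In all 12 genes the 10 min arrays lie below the 0 min arrays; the ringed outlying array is the highest 0 min array in 9 of them, and Rlim's 10 min arrays run from 5.05 to 7.14.

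The 10 min duplicates differed in a repeated way in some falls. Duplicate 2 was below duplicate 1 by more than 0.4 in both preparations in 20 of the 156 called falls (12.8%), against 189 of all tested probe sets (1.01%). Mphosph8, which binds methylated histone H3 in silent chromatin, read 8.86, 8.99, 8.78 and 8.94 at 0 min and 8.53, 7.66, 8.33 and 7.66 at 10 min, a change of -0.85 ± 0.10 (adjusted p = 0.00796). Psmd14, the deubiquitinase of the proteasome lid, read 9.55, 9.62, 9.38 and 9.58 at 0 min and 9.45, 8.60, 9.33 and 8.64 at 10 min, so duplicate 1 of each preparation was close to its controls. The reverse, duplicate 2 higher by as much in both preparations, was seen in 2 of the 212 called rises (0.943%) and in 0.569% of all. Without both duplicate 2 arrays of 10 min there were 290 calls, 155 higher and 135 lower, and without both duplicate 1 arrays 875, 495 higher and 380 lower. Both settings were chosen after seeing the data. What the duplicates shared across preparations was not tested.

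Several splicing factors were among the called falls. Of 70 tested splicing factors and hnRNP proteins 2 fell on the brightest probe set, against 0.838% of probe sets called lower, the median was -0.04, and 17 had 10 min arrays all below 0 min, against 6.97% of all probe sets. The 2 were Sf3a3, a subunit of the U2 snRNP, at -0.33 ± 0.07 (adjusted p = 0.0428) and Hnrnpm at -0.39 ± 0.09 (adjusted p = 0.0471), and neither was called without the outlying array. Over all named genes tested, 112 were called lower on at least 1 probe set. In this list 6 more members fell on other probe sets, which makes 8 genes. They were Prpf38b, the spliceosomal protein Snrpd1 at -0.45, the splicing regulators Srsf10 at -0.62 and Mbnl2 at -0.65, and the hnRNP proteins Hnrnpa1 at -0.56 and Hnrnpu at -0.53. Of these 6, Prpf38b, Srsf10 and Mbnl2 were also called without the outlying array. The brightest probe sets of Hnrnpu and Snrpd1 were at 0.19 and 0.05. Those of Prpf38b, Mbnl2 and Hnrnpa1 were at -0.05, -0.17 and -0.32, without a call.

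In the list of chromatin remodellers and histone modifiers, of 69 tested genes Rlim alone was called on the brightest probe set. It fell, where 0.838% of all probe sets were called lower. Rlim is a ubiquitin ligase and is counted among the ligases below as well. The list's median was -0.01 and 33 were positive. On other probe sets Atrx fell, Smarce1, a subunit of the BAF complex, fell by 0.31 (log2 change -0.31, adjusted p = 0.0477) and Kmt2e rose by 0.54 (adjusted p = 0.0316). Of 55 ubiquitin ligases and deubiquitinases 3 fell and 1 rose on the brightest probe set, beside 0.838% and 1.14% of all probe sets, with a median of -0.04. The falls were those of Rlim, of Xiap, a ligase that inhibits caspases, at -0.48 ± 0.08 (adjusted p = 0.0271) and of Cul4b, a cullin scaffold, at -0.30 ± 0.07 (adjusted p = 0.0461). Usp7, a deubiquitinase that acts on MDM2, rose by 0.33 ± 0.07 (adjusted p = 0.0424), while 2 other probe sets of it were at -0.09 and -0.20. On other probe sets the ligases Nedd4 and Huwe1 fell, at -0.58 (adjusted p = 0.0298) and -0.78 (adjusted p = 0.0216). Their brightest probe sets were at 0.10 and -0.11, without a call.

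The 38 proteasome subunits had no call on the brightest probe set, and Psmd14 fell on another, at -0.53 ± 0.07 (adjusted p = 0.0122). On the brightest probe sets 21 of them had 10 min arrays all below 0 min, where 6.97% of all probe sets did so, and 1 had them all above. Their median was -0.12, the same without the outlying array, and the summed intensity was 121785 to 125702 at 0 min and 113463 to 117232 at 10 min. The differences of most subunits were thus small and alike, with Psma3 at -0.65 and Psmc6 at 0.59 as the extremes, and in both the outlying array stood apart. Psma3 read 12.42, 10.58, 10.69 and 10.61 at 0 min, and Psmc6 read 8.50, 11.60, 11.64 and 11.35.

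Sterol synthesis had 1 fall among 29 tested genes on the brightest probe set, Fdps, the farnesyl diphosphate synthase, where 0.838% of all probe sets were called lower. It read 12.33, 12.21, 12.68 and 12.66 at 0 min and 11.95, 12, 12.20 and 12.10 at 10 min, with no overlap and a change of -0.41 ± 0.07 (adjusted p = 0.0271). The list's median was -0.14 (-0.20 without the outlying array), and 4 genes were separated downward, where 6.97% of all probe sets were. On other probe sets 3 more enzymes of the pathway fell, Cyp51 at -0.65 (adjusted p = 0.0106), Idi1 at -0.58 (adjusted p = 0.0399) and Sc5d at -0.38 (adjusted p = 0.0293), and Sc5d was the 1 of these still called without the outlying array. The brightest probe sets of Cyp51 and Idi1 were at 0.08 and -0.47.

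In genes of excitation and calcium handling 3 of 45 rose and none fell, where 1.14% of all probe sets were called higher. The median was 0.14, and 11 genes were separated upward, against 7.38% of all probe sets. Beside Rgs4 these were Hcn2, a pacemaker channel, at 0.66 ± 0.15 (adjusted p = 0.0497), and Kcnj3, the GIRK1 channel of the vagal response, at 0.36 ± 0.08 (adjusted p = 0.0443). Kcnj3 was dim, with 6.56 to 6.79 at 0 min and 6.89 to 7.07 at 10 min. In the list of fatty acid oxidation 2 regulators rose, the nuclear receptors Ppard at 0.48 ± 0.09 (adjusted p = 0.0289) and Esrra at 0.53 ± 0.11 (adjusted p = 0.0396), out of 35 tested genes, where 1.14% of all probe sets were called higher. No enzyme of the list was called. Another receptor, Esrrg, fell on 1 probe set at -0.60 (adjusted p = 0.0245), while its brightest one stood at 0.85 without a call. Ppard read 9.86, 9.85, 10.06 and 9.96 at 0 min and 10.16, 10.27, 10.59 and 10.65 at 10 min, and Esrra 8.88, 9.20, 9.27 and 9.20 against 9.53, 9.55, 9.73 and 9.84. In both genes the higher 10 min values were those of preparation 2, and no array overlapped.

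Most other programs gave no call at 10 min. Of the 33 lists with a tested member 24 had none on the brightest probe set of each gene, and 18 had none on any probe set. Over all probe sets 1.98% were called, so lists of this size without a call lie near that share. On the brightest probe set no immediate early gene of 49 was called (median 0.07), nor any of 31 heat shock proteins (0.02), 36 genes of endoplasmic reticulum stress (-0.03), 31 NRF2 targets (0.04), 28 inflammatory genes (0.09), 17 BCL2 family genes (0.01) or 30 genes of autophagy (0.10). On other probe sets Klf2 rose, as given below, Hspa2, a relative of HSP70, fell at -0.66 (adjusted p = 0.0485), Hsf2, a heat shock factor, fell at -0.91 (adjusted p = 0.00746), and Atg4b, a protease of autophagosome formation, rose by 0.46 (adjusted p = 0.0357). Fos, the immediate early transcription factor, read 8.62, 8.64, 8.70 and 8.15 at 0 min and 9.33, 9.01, 8.93 and 8.99 at 10 min. Its groups did not overlap, but the difference of 0.54 ± 0.20 had an adjusted p of 0.163. The largest differences among the immediate early genes were Sik1 at 1.34 ± 0.35 (adjusted p = 0.0731) and Dusp1 at 0.87 ± 0.23 (adjusted p = 0.0691). In this list 7 of 49 genes, these and Fos among them, had 10 min arrays all above 0 min, and 1 had them all below. Over all probe sets 7.38% and 6.97% did so. Egr1 differed by 0.07 ± 0.14 (adjusted p = 0.826), Hspa1a, the inducible HSP70, by 0.20 ± 0.59 (adjusted p = 0.879) and Txnip, an inhibitor of glucose uptake, by -0.11 ± 0.21 (adjusted p = 0.811). A missed threshold does not show that these genes stayed level.

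The machinery of the working cell was called nowhere either, beside the 1.98% of all probe sets called. The 46 genes of the respiratory chain had a median of 0.01, the 35 of the sarcomere 0.01, the 33 of cytosolic ribosomal proteins -0.01 and the 34 translation factors -0.04. Nppa, the atrial natriuretic peptide, read between 13.68 and 13.80 in all 8 arrays, at the upper end of the scale, where a change would be compressed. Tnnt2, cardiac troponin T, changed by -0.08 ± 0.06 (adjusted p = 0.457) and Myh6, the alpha myosin heavy chain, by 0.38 ± 0.14 (adjusted p = 0.151), with the outlying array the lowest.

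Markers of the labelled cell type were present in every array. Of 14 listed cardiomyocyte markers 13 were tested, with a summed intensity of 95517 to 106683 at 0 min and 105666 to 108100 at 10 min. No member was called, where 1.98% of all probe sets were. Fibroblast markers were present as well, 14 of 14 tested, with sums of 64149 to 70255 and 61729 to 71907 and no call. Endothelial, smooth muscle, macrophage and epicardial lists had no call either, in 9, 11, 14 and 5 tested genes. Their sums were 3289 to 4428 and 3449 to 4582 for endothelial markers, 22885 to 24256 and 21919 to 24332 for smooth muscle, 8045 to 9918 and 7664 to 10169 for macrophages, and 1137 to 1229 and 1120 to 1287 for epicardial markers, 0 min first. Of 9 tested neuronal markers Ina rose, where 1.14% of all probe sets were called higher, with sums of 1494 to 2129 and 1897 to 2244. As given above, Ina was at or near the floor in most 0 min arrays. Without a call, Prph at 0.25 had 10 min arrays all above 0 min, and Uchl1 at -0.40 had them all below. No erythroid marker of 8 passed the filter on low values. In such bulk RNA fewer cells of a type and less RNA per cell cannot be told apart.

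Some calls turned on the outlying array. Of the 368 called probe sets 175 were called only with it and 65 others only without it. Called only with it, by size, were Ak4, Cyp26b1, a retinoic acid hydroxylase, at 1.82, Sorbs3, a vinculin-binding adaptor, at 1.64 and Klf2, a shear-responsive transcription factor, at 1.60. Klf2 read 4, 8.89, 7.24 and 7.36 at 0 min and 8.77, 8.84, 8.28 and 7.99 at 10 min, and without the array its difference was 0.37 (adjusted p = 0.553). Called only without it were Serpinb1a, an inhibitor of neutrophil proteases, which went from 2.91 to 3.81 (adjusted p = 0.0498), F8, coagulation factor VIII, from -0.34 to -1.31, and Crebzf and Ptpn2. Each of these had an outlying value that lay toward or beyond the 10 min arrays.

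The same 10 min arrays can be read against another set of controls, the 4 arrays of 0 min ischemia with reperfusion. That comparison called 261 probe sets (1.4%), and both comparisons rest on the same 10 min arrays. The HIF targets had a median of 0.69 and 12 of 37 rose, and in glycolysis 5 of 30 rose. Sterol synthesis had 12 falls of 29, with a median of -0.45 and Fdps at -0.54 (adjusted p = 0.0102). Ero1a was at 1.16 (adjusted p = 0.0487), P4ha1 at 0.92 (adjusted p = 0.0271), Gys1 at 0.94 (adjusted p = 0.00689), Kdm4b at 0.66 (adjusted p = 0.0186) and Vegfa at 0.91 (adjusted p = 0.0297). Ankrd37 was at 0.56 (adjusted p = 0.524). Of the 12 largest rises Rgs4, Kcnk3 and Tmem106a passed here, at 1.11, 1.00 and 1.15, while Aspdh stood at 0.94, Gimap6 at 0.35, Drp2 at 0.51, Kcna2 at 0.11 and Tmem259 at 0.22. None of the 12 largest falls passed. Rlim stood at -0.77, Coro1c at -0.26, Dpysl3 at -0.41, Pik3ca at -0.25, Atrx at -0.04, Cdkn1b at -0.08 and H1f4 at 0.08. The difference between the 0 min groups was not tested.

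The place of 10 min among the durations was asked by setting it against the mean of 30 and 60 min. That test called 136 probe sets (0.73%), 62 higher and 74 lower at 10 min. No HIF target and no glycolysis gene was called in it on the brightest probe set of the gene. The HIF list's median against 0 min was 0.61 at 30 min, 0.61 at 60 min and 0.71 at 120 min, beside 0.66 at 10 min, all 4 set against the same 0 min arrays. For glycolysis these were 0.19, 0.20 and 0.16, beside 0.24. Immediate early genes had 4 calls of 49, and Fos was the clearest, lower at 10 min than at 30 and 60 min by 1.99 ± 0.18 (log2 difference -1.99, adjusted p = 0.000938). Against 0 min it stood at 2.28, 2.78 and 2.83 at 30, 60 and 120 min, and Egr1 was lower at 10 min as well, by -0.84 (adjusted p = 0.0119).

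Genes other than immediate early ones stood apart at 10 min too. Gimap6 was higher than at 30 and 60 min by 1.97 ± 0.24 (adjusted p = 0.00618), with -0.44, 0.11 and 0.96 against 0 min at 30, 60 and 120 min. Aspdh was higher by 2.29 (adjusted p = 0.0186), with 0.20, 0.32 and 1.43. Gpr12, an orphan receptor, Irf2, an interferon regulatory factor, and Uox, urate oxidase, were the other 3 most certain higher values. Rlim was lower by -1.69 ± 0.22 (adjusted p = 0.00668) with -0.03, 0.23 and -1.35 against 0 min, H1f4 by -1.14 (adjusted p = 0.00349), and Coro1c by -0.97 (adjusted p = 0.0114). With Fos, the most certain lower values were Psmd14, Myh1, a fast myosin, and Mphosph8, of which Psmd14 and Mphosph8 are the ones whose 10 min duplicates differed. Genes called at 10 min both against 0 min and against 30 and 60 min are in part selected for lying near 0 min between. Their 120 min values, which share the 0 min arrays, took no part in that choice. In this paragraph they are given for Gimap6, Aspdh and Rlim only. In the order of deposit the arrays of 10 and 120 min follow those of 0, 30 and 60 min. Whether that order bears on these values was not tested.

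**Figure D5:**
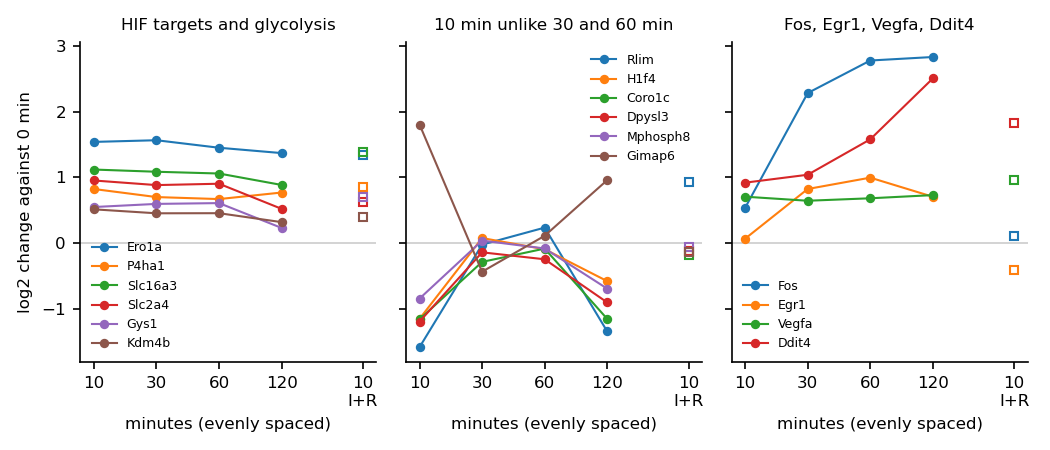
Circles joined by lines are the log2 changes of 10, 30, 60 and 120 min of ischemia against the shared 0 min arrays, and open squares the change of 10 against 0 min with reperfusion (I+R) without 1 array; minutes are evenly spaced. The 6 HIF and glucose genes are above 0 at each duration, Rlim and Gimap6 are near 0 at 30 and 60 min, and Fos stands at 0.54 at 10 min and at 2.28 or more from 30 min on.

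The 10 min ischemia followed by reperfusion gave a comparison on other arrays. With that of 10 against 0 min without reperfusion it shares only the fit's estimate of spread. Of the 4 arrays at 10 min there, the 1 of preparation 2, duplicate 1, lay nearer to its 0 min group than to its own. Its deviations correlated at 0.429 with that group's mean and at 0.112 with the mean of its own. By smaller margins, duplicate 1 of preparation 1 (0.306 against 0.254) and duplicate 2 of preparation 2 (0.277 against 0.263) lay nearer to 30 min with reperfusion. Several arrays of 0 min ischemia also lay nearer to another group than to their own. With the array of preparation 2, duplicate 1, 7 probe sets were called (0.0376%), with 2101 at an unadjusted p under 0.05. Without it 350 were called (1.88%), an alternative chosen after seeing the data. Without it 21 of the 37 HIF targets rose, with a median of 0.81, and 10 of 30 glycolysis genes. With it the HIF median was 0.63 and none passed. Of the 8 HIF targets risen after 10 min of ischemia, 7 also rose with reperfusion once that array was left out. Ankrd37 was at 2.79 (adjusted p = 0.00253), Ak4 at 3.32 (adjusted p = 0.0303), Ero1a at 1.34 (adjusted p = 0.0130), P4ha1 at 0.84 (adjusted p = 0.0266) and Slc16a3 at 1.39 (adjusted p = 0.0121), while Kdm4b missed it at 0.40 (adjusted p = 0.0590).

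The calls were also compared over the whole table. Between the calls of both comparisons 57 probe sets were shared in the same direction, 46 higher and 11 lower, which is 15.5% of the 368 and 16.3% of the 350, and 1 had opposite signs. Of the 12 largest rises 4 passed with reperfusion, Ankrd37, Rgs4 at 1.66, Kcnk3 at 1.06 and Tmem106a at 0.71, whereas Aspdh stood at -0.06, Gimap6 at -0.14, Kcna2 at 0.02 and Drp2 at -0.22. None of the 12 largest falls passed, and they lay between -0.30 for Retreg1 and 0.93 for Rlim (adjusted p = 0.0994). Fdps fell again, at -0.54 (adjusted p = 0.00520), as 1 of 12 sterol genes that did. The reading of 10 min ischemia against the other controls used the same 0 min arrays with reperfusion. Its sterol falls and these are therefore not independent. Whether 10 min with and without reperfusion differ in these genes was not tested.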

How the data were processed

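Affymetrix rat arrays measured total RNA of neonatal rat ventricular myocytes in 40 samples. RNA was taken with RNeasy columns and labelled as biotin cRNA, per the labels' protocols. The authors deposited linear intensity values for 31042 probe sets; how probe sets were summarised and scaled is not stated in these sources, and some values lie below 0. Gene names came from the platform annotation, which gave 1 symbol to 20826 probe sets, several to 436 and none to 9780.

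The 40 arrays were quantile normalized, values below 0 were set to 0, and log2(intensity + 16) was taken. Probe sets with a mean above the 40th percentile (6.48) were tested, 18625 in all. Duplicates were averaged within a preparation, which gave 20 values for 10 groups, and limma 3.58.1 in R 4.3.3 was fitted with group and preparation as terms (9 residual and 2.27 prior degrees of freedom), with Benjamini-Hochberg adjustment. The pairing by preparation comes from the labels; deviations of the same preparation correlated at 0.12, or 0.19 without the outlying array. A list is read from the brightest tested probe set of each gene, and no list was tested as a set.

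Genes were selected for naming by rule. Taken were the 12 largest rises and 12 largest falls called with and without the outlying array and of the same sign in both preparations. Up to 6 called members of each list were taken, or 2 by size where none was called. Also taken were 14 genes always given, 4 called only with or only without that array, and 4 by smallest p in each further test. Not every gene so selected is described in the text. For most lists without a call the 2 genes by size are left out. Members and lists were chosen with earlier results of these data known. The fit was also run on simulated data with independent normal noise, which modelled no outlying array, floor or duplicates. That run does not show how the calls behave with those. Alternatives covered scale, constant, filter, block, weights, controls and single arrays. Promoter windows were from RefSeq (GRCr8), and figures were drawn with Python 3.11.15 and matplotlib 3.10.9.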

Additional observations from a re-analysis of the deposited data

Results flagged for a closer look

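In 110 groups of 4 arrays, 13 held an array far from the other 3 by Dixon's test at the 95% level, which chance alone flags in about 1 group in 20. Values are log2(intensity + 16).

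The outlying 0 min array, preparation 1, duplicate 1, correlated with all others at a median of 0.872, where the remaining 0 min arrays reached 0.969 to 0.976. Single genes were far off in the same array. Hif1a read 4 there and 12.07 to 12.09 in the other 0 min arrays, Tmem259 read 6.42 against 9.14 to 9.47, and Myh6 read 12.07 against 13.38 to 13.52. Prpf38b read 9.24 against 7.70 to 7.77, Chmp1b 9.75 against 6.87 to 7.30, Cdkn1b 10.90 against 8.08 to 8.20, and Ate1 10.53 against 9.34 to 9.52.

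Other arrays stood apart in single genes. At 0 min Ina read 7.06 in preparation 2, duplicate 2, against 4 to 4.38, and Fos read 8.15 in the same array against 8.62 to 8.70. Ak4 read 8.82 in preparation 1, duplicate 2, against 4 in the other 3, and Nppa read 13.75 there against 13.80. At 10 min Vegfa read 12.19 in preparation 1, duplicate 2, against 12.40 to 12.43.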

How the results depend on the processing

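The count of 368 calls at 10 min moved with how arrays were treated. It was 176 without preparation as a block (95 higher, 81 lower), 66 on the deposited scale (42 and 24; the median of all probe sets shifted by 0.04), 1688 with single arrays as samples, 1183 with the duplicate correlation estimated, 1746 with array weights, and 0 by limma from the 8 arrays alone (1718 unadjusted). Leaving out 1 array gave 161 (without 10 min preparation 2, duplicate 2) to 656 (without 0 min preparation 2, duplicate 1), with 640 without 10 min preparation 2, duplicate 1. Leaving out both 10 min duplicate 1 arrays, chosen after seeing the data, gave 875. Centred medians (274), constants of 4 and 64 (350 and 467), no filter (362), the 60th percentile (400) and the other 0 min group (261) stayed within 1.5 times.

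On the brightest probe set of each gene, the 8 called HIF targets became 4 without the block, 3 on the deposited scale, 4 with centred medians, 3 without a filter, 0 from the 8 arrays alone, 27 with arrays as samples, 24 with duplicate correlation, 27 with weights, 13 without both 10 min duplicate 1 arrays, and 2 (without the outlying array) to 16 (without 0 min preparation 1, duplicate 2) with 1 array left out, 5 without 10 min preparation 2, duplicate 2. The 2 called glycolysis genes became 1 without a filter, 5 at the 60th percentile, 0 from the 8 arrays, 19, 16 and 18 in the same 3 array fits, 5 with the other 0 min group, 5 without both duplicate 1 arrays, and 0 (without the outlying array) to 5 with 1 left out (0 min preparation 1, duplicate 2, or preparation 2, duplicate 1, at either time).

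The 136 calls of 10 min against 30 and 60 min became 89 without the block, 1251 on the deposited scale, 241 centred, 205 without a filter, 430, 243 and 1743 in those array fits, 457 without both duplicate 1 arrays, and 89 (without 10 min preparation 2, duplicate 2) to 265 (without its duplicate 1) with 1 left out, 234 without 10 min preparation 1, duplicate 1. The 0 calls for a difference between preparations became 9 without a filter, 4 without both duplicates 1 and 4 without both duplicates 2, and 1 to 1740 with 1 array left out.

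Of 69 called probe sets named, 42 kept the call without the block, 30 on the deposited scale and 47 without the outlying array. Against the other 0 min group 15 kept it and 5 turned sign: H1f4 (0.081), Kcnj3 (-0.058), Irf2 (-0.23), Myh1 (0.020) and Hspa2 (0.018). The cause was not tested. Dim probe sets near the floor limit what folds can show.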
